A study of Mus musculus with 48 samples.

Results

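The genes described are 37 complement and coagulation factors that the liver makes, 17 of them complement proteins and 20 of them proteins of clotting and its control. They were taken by gene symbol from the array annotation, and each gene is represented by the brightest of its tested probes. All 37 were among the 22029 gene names tested, and 54 of their 55 probes passed the filter on dim probes.

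Most of the proteins of complement and of coagulation in plasma are secreted by hepatocytes, and many of their genes are transcribed under liver transcription factors such as HNF1, HNF4 and C/EBP. Complement is a cascade of proteases that marks targets with C3 fragments and ends in a pore, the membrane attack complex. Coagulation is a cascade that turns prothrombin into thrombin and fibrinogen into fibrin, and plasmin dissolves the clot. Several of these genes belong to the acute-phase response, in which inflammatory cytokines change what the liver secretes.

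Total liver RNA of 48 male C57Bl6J mice was hybridised to one-colour Agilent arrays, with 8 animals to each of 6 groups and an array for each animal. The mice were *WT*, *Pparα* hep-/- (floxed *Pparα* deleted by a Cre recombinase under the albumin promoter, hence in hepatocytes) or *Pparα*-/- (deleted in every cell), and each genotype was fed a CTRL diet or a HFD with 60% fat. By the labels the diets lasted 12 weeks and the mice were 20 weeks old, and by the methods all were kept at thermoneutrality. The methods give a shorter time on the diets than the labels do, and the data do not tell which applies. *WT* mice came from a commercial supplier and both mutant lines were bred in the laboratory's own facility, so the source of the mice and the difference between mutant and *WT* mice cannot be told apart. The mutant lines were also separate lines. Between them, other differences of the lines cannot be told apart from where *Pparα* was deleted.

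The median intensity of the arrays ranged from 56 to 91 and that of their local background from 20 to 36, with 0 saturated spots. An array has no read depth, and the number of mice limits the precision. The *Ppara* signal was lower than in *WT* mice by 0.42 and 0.85 on the log2 scale in *Pparα* hep-/- mice on the CTRL diet and the HFD and by 0.65 and 1.08 in *Pparα*-/- mice, but whether its probe lies in the deleted sequence was not analysed here. All 11 hepatocyte markers tested, among them *Alb* and *Ttr*, were well above background in every group. Mice are named by replicate number, and *WT* CTRL mouse 6 and *Pparα* hep-/- CTRL mouse 1 had the lowest array weights, 0.208 and 0.189, and stood apart for the members: mouse 6 held the lowest value of its group for 26 of 37 members, and mouse 1 for 23. These arrays also held the lowest value for 28.1% and 33.7% of all probes. In *WT* mice on the HFD, mice 1 and 2 held the highest value of the group for 31 of 37 members. Mouse 1 held it for 13.3% and mouse 2 for 17% of all probes, at array weights of 0.537 and 0.343.

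Promoter sequence was matched by symbol for 28 of the 37 genes in RefSeq (GRCm38.p6). The 250 bases before the start site are shown for 7 genes, 6 because the results turn on their levels and *Fgb* because it adjoins *Fga* and was not called between genotypes. Capitals mark matches, on either strand, to the letters TTGCNNAA (C/EBP), GTTAAT (HNF1), CTGGGAA and TTCNNNGAA (STAT), CAAAGTCCA (HNF4) or AGGTCA (nuclear receptors).
Mbl2, chr19:30232678-30232927, plus strand: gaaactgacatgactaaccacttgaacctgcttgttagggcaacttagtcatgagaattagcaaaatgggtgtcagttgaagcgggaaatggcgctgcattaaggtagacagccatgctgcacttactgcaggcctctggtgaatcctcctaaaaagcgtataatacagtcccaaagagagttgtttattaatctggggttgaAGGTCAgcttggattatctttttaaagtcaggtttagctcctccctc
C8b, chr4:104766067-104766316, plus strand: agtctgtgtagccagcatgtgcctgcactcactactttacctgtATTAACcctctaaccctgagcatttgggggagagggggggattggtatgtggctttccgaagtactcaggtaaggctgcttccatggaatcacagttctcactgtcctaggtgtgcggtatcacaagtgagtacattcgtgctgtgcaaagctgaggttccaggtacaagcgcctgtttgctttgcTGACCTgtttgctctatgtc
C9, chr15:6445096-6445345, plus strand: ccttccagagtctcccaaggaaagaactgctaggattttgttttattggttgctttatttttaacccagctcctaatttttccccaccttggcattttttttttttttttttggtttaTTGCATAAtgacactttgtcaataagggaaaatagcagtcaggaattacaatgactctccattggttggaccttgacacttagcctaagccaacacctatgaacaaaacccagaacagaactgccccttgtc
F11, chr8:45262032-45262281, minus strand: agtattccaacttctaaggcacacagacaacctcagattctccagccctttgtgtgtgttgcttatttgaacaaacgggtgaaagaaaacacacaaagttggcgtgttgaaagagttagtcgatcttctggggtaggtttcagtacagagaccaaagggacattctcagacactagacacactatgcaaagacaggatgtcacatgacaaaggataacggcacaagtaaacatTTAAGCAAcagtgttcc
Fga, chr3:83025903-83026152, plus strand: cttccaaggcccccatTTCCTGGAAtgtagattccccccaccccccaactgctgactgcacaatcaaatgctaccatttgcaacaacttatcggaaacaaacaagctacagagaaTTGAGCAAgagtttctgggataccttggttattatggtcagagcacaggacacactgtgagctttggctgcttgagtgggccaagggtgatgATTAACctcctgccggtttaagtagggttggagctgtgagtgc
Fgb, chr3:83049864-83050113, minus strand: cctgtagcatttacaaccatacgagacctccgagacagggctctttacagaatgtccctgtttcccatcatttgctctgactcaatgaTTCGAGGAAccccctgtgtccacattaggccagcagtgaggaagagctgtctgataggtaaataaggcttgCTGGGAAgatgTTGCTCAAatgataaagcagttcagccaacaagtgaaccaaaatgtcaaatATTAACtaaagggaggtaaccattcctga
Pros1, chr16:62854057-62854306, plus strand: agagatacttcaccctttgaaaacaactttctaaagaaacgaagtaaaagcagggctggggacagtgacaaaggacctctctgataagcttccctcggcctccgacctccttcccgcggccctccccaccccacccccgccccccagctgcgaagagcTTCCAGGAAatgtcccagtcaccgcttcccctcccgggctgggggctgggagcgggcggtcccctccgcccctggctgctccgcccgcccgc
The C/EBP letters were in 7 of the 28 member promoters, against 9.56% of 32851 promoters of the same length. The HNF1 letters were in 7 members and in 6.43% of all promoters. TTCNNNGAA was in 6 members and 7.02% of all, and CTGGGAA, which can share bases with it, was in 4 members and 9.1% of all. AGGTCA was in 10 members and 14.0% of all, and CAAAGTCCA in 0 members and 0.384% of all. *Fga* and *Fgb* each held matches for C/EBP, HNF1 and TTCNNNGAA, *Mbl2* held only AGGTCA, and *Pros1* only TTCNNNGAA. A match is a run of letters and not a measured binding site.

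The main pattern was that *Pparα*-/- livers had higher signal for many of these genes than *Pparα* hep-/- livers, on both diets. A gene was called where limma gave it a Benjamini-Hochberg adjusted p no higher than 0.05, and each difference is on the log2 scale between 8 and 8 mice, given with its SE. In bulk liver, fewer cells of a type and less RNA per cell cannot be told apart. On the HFD 23 of the 37 were called higher and 1 lower in *Pparα*-/- than in *Pparα* hep-/- mice, against 15.2% of all probes higher and 15.4% lower. On the CTRL diet 15 were higher and 2 lower, against 12.2% and 13%. The median log2 difference of the members was 0.23 on the HFD and 0.17 on the CTRL diet, beside -0.0035 and 0.0013 for all probes. The 2 groups of 8 mice did not overlap for 7 of the called members on the HFD and for 8 on the CTRL diet, against 6.52% and 4.41% of all probes.

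Against *WT* mice, 14 members were higher and 2 lower in *Pparα*-/- mice on the CTRL diet (all probes 15.6% and 18.7%), with a median of 0.11 beside -0.018 for all probes. On the HFD 20 were higher and 3 lower (all probes 21.8% and 24.0%), with a median of 0.20 beside -0.027. Of the called members, 2 and 3 had no overlap with *WT* mice on the CTRL diet and the HFD, against 6.13% and 6.91% of all probes. The HFD count depended on the scaling of the arrays. With processed signals scaled to their 75th percentile in place of quantile normalization, 6 members were higher and 10 lower than in *WT* mice on the HFD (16432 of 33323 probes called). The counts were 17 higher and 1 lower against *Pparα* hep-/- mice on either diet (8245 probes called on the CTRL diet and 10619 on the HFD). Against *WT* mice on the CTRL diet they were 12 higher and 1 lower (11475 probes called). This setting changes both the signal and the scaling. Each was then changed alone, in settings chosen after seeing the data. The median signal scaled to its 75th percentile gave 9 higher and 10 lower than in *WT* mice on the HFD (18166 of 33323 probes called). The processed signal with quantile normalization gave 22 higher and 3 lower (15854 probes called). Under the 75th percentile of either signal, 4 of the members called higher turned in sign in this comparison (*C3*, *Vtn*, *F12* and *Kng1*), and *Kng1* was then called lower (-0.19 with the processed signal, against 0.13 as reported). Below, the 75th percentile stands for that of the processed signal.

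Between *Pparα* hep-/- and *WT* mice, on the CTRL diet 2 members were higher and 7 lower (all probes 11.3% and 13.4%), and on the HFD 4 were higher and 7 lower (13.3% and 13.4%). For 0 members did the groups separate, against 1.29% and 1.42% of all probes. Under the 75th percentile the splits were 2 higher and 3 lower on the CTRL diet and 1 higher and 16 lower on the HFD. Of all 33323 probes 8275 and 10983 were then called. Without array weights 3 members were called on either diet (all probes 16.6% on the CTRL diet and 9.74% on the HFD).

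The HFD lowered more of these genes than it raised. In *Pparα* hep-/- mice 12 fell and 4 rose (all probes 10.8% and 9.46%), in *Pparα*-/- mice 9 fell and 3 rose (12.6% and 12.2%) and in *WT* mice 7 fell and 1 rose (10.1% and 8.60%). Diet groups did not overlap for 2, 1 and 0 of the called members, in the same order of genotypes, against 0.570%, 1.41% and 0.588% of all probes. In *WT* mice the count of members called was near that of all probes. Without *WT* HFD mice 1 and 2 the members' count became 14 lower and 0 higher, beside 7110 of 33323 probes called. The 75th percentile gave 18 lower and 0 higher in *Pparα* hep-/- mice and 21 lower and 0 higher in *Pparα*-/- mice. Of all 33323 probes, 8227 and 9349 were called in these comparisons under that setting. Without array weights 2, 5 and 6 members were called in *WT*, *Pparα* hep-/- and *Pparα*-/- mice, beside 12.6%, 3.81% and 12.1% of all probes. Of 14 macrophage markers 6 and 11, and of 10 stellate cell markers 7 and 8, rose with the HFD in *Pparα* hep-/- and *Pparα*-/- mice. Of all 136 calls of members between 2 groups, 135 had the same sign within each of the 2 wash batches, and the exception was *C2* on the HFD in *WT* mice, at 0.024 and -0.46. Comparisons that share a group of mice are not independent of each other.

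**Figure D1:**
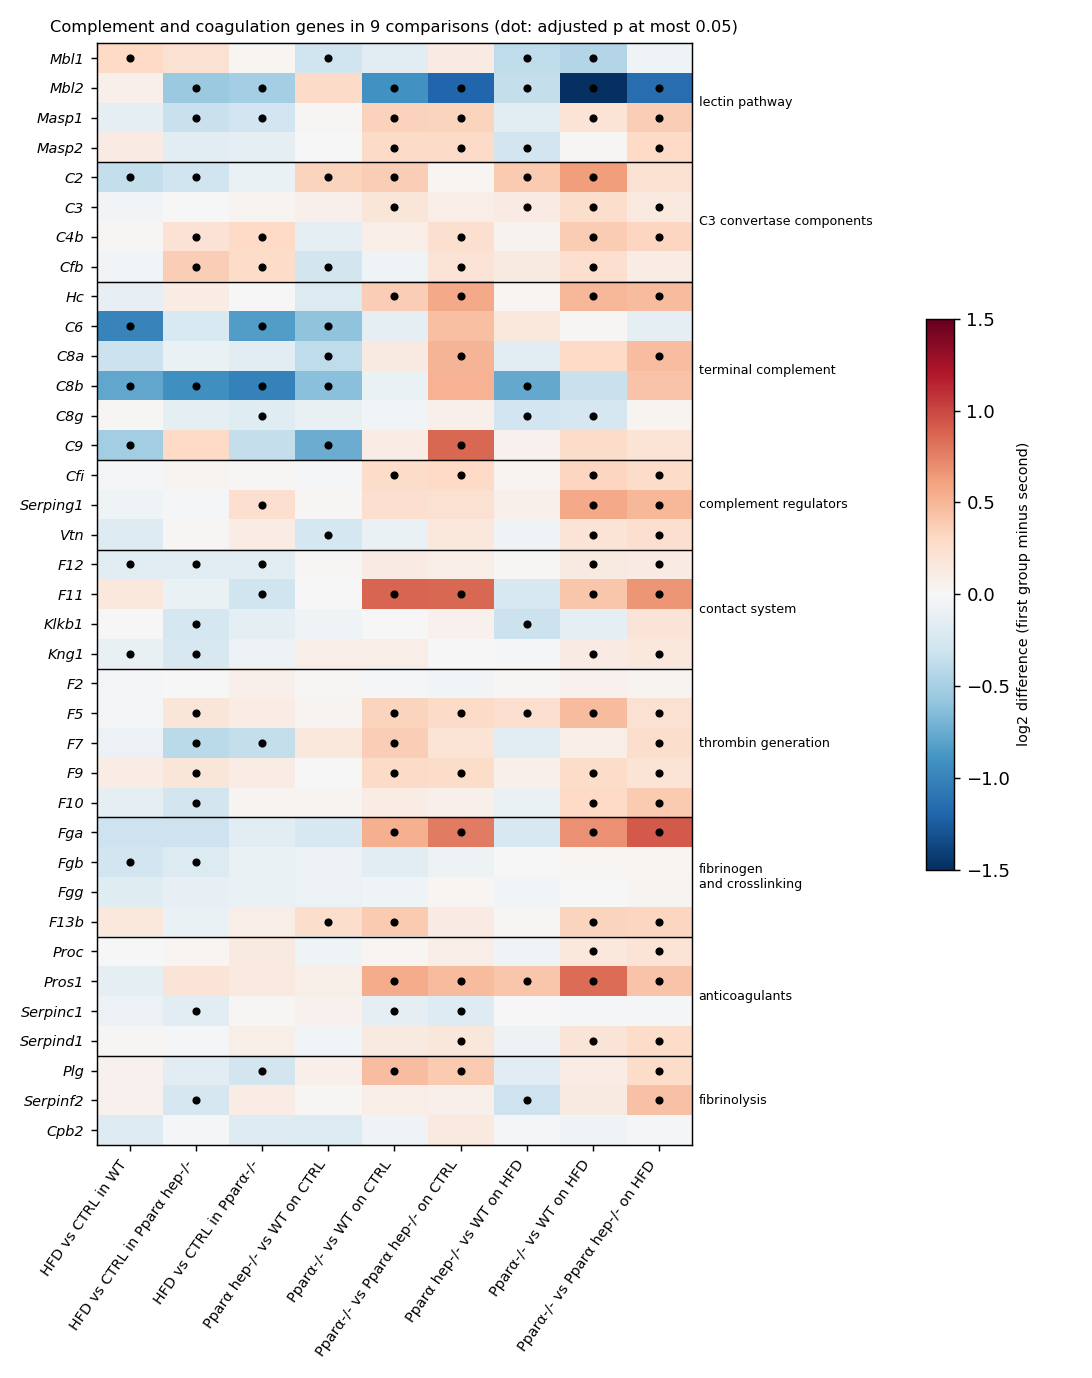
Log2 difference of each of the 37 members (rows, by role) in the 9 comparisons of 2 groups (columns); red is higher in the first group, blue lower, and a dot marks an adjusted p of at most 0.05. Red prevails in the columns that set *Pparα*-/- mice against another genotype, with *Mbl2* as the darkest blue row. Under scaling to the 75th percentile the column of *Pparα*-/- against *WT* mice on the HFD had 6 members called higher and 10 lower (16432 of 33323 probes called).

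**Figure D2:**
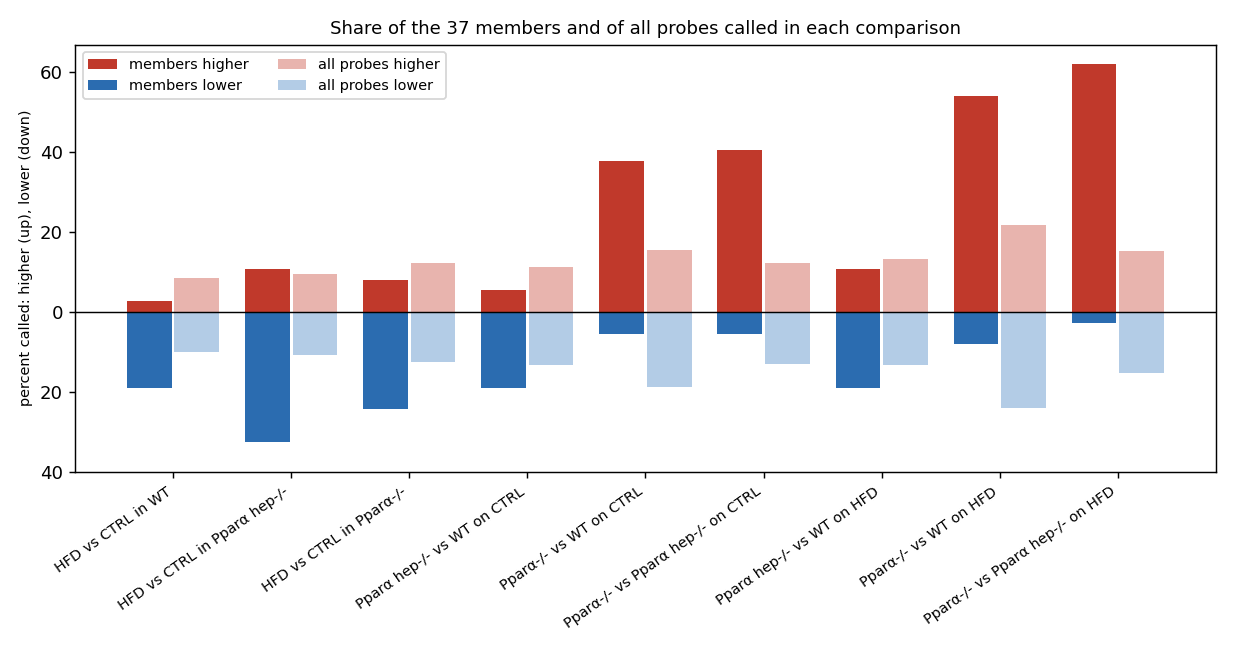
Percent of the 37 members (dark bars) and of the 33323 probes tested (pale bars) called higher (upward) or lower (downward) in each comparison. The members' upward bars pass those of all probes in the 4 comparisons that involve *Pparα*-/- mice against another genotype and for the HFD in *Pparα* hep-/- mice. Of the former, 1 (*WT* mice on the HFD) turned to 6 higher and 10 lower under the 75th percentile (16432 of 33323 probes called). The members' downward bars pass those of all probes in the 3 HFD comparisons and for *Pparα* hep-/- against *WT* mice on both diets.

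The lectin pathway starts when mannose-binding lectins, encoded by *Mbl1* and *Mbl2*, bind sugars on a surface and activate the proteases encoded by *Masp1* and *Masp2*. *Mbl2* was the member that differed most. Its log2 signal on the CTRL diet ran from 15.89 to 16.73 (median 16.54) in *WT* mice, from 16.58 to 16.86 (median 16.69) in *Pparα* hep-/- mice and from 15.04 to 16.04 (median 15.33) in *Pparα*-/- mice. On the HFD it ran from 16.09 to 16.73 (median 16.55), from 15.52 to 16.42 (median 16.25) and from 14.27 to 15.61 (median 14.98). *Pparα*-/- mice were lowest on both diets, and did not overlap with *WT* mice on the HFD or, on the CTRL diet, with *Pparα* hep-/- mice. The log2 difference from *WT* mice was -0.91 ± 0.16 (SE, adjusted p = 8.9e-06) on the CTRL diet and -1.5 ± 0.13 (adjusted p = 1.09e-12) on the HFD, or 0.353 times the *WT* level. From *Pparα* hep-/- mice it was -1.19 ± 0.14 and -1.14 ± 0.13. The HFD lowered *Mbl2* in *Pparα* hep-/- mice (-0.56 ± 0.13), where the diet groups did not overlap, and in *Pparα*-/- mice (-0.51 ± 0.14). In *WT* mice the difference was 0.08 ± 0.15 and was not called. These differences come from a fit that weights the arrays and adjusts for the wash batch, so they need not equal the differences of the medians.

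*Mbl2* was also lower in *Pparα* hep-/- than in *WT* mice on the HFD (-0.36 ± 0.14, adjusted p = 0.0456), a call lost in 8 of 19 alternative settings. *Mbl1* shared the lower signal against *WT* mice on the HFD but not the fall with the diet in the mutant lines. It was lower than in *WT* mice in *Pparα*-/- mice on the HFD (-0.44 ± 0.09, adjusted p = 7.4e-05) and in *Pparα* hep-/- mice on both diets (-0.30 ± 0.10 and -0.38 ± 0.09), and it was the 1 member that rose on the HFD in *WT* mice (0.30 ± 0.10, adjusted p = 0.0335), a call lost without mice 1 and 2 of that group. *Masp1* ran from 13.35 to 13.65 in *Pparα*-/- CTRL mice, above all *WT* CTRL mice (12.55 to 13.32) and all *Pparα* hep-/- CTRL mice (12.45 to 13.26). The differences were 0.35 ± 0.08 and 0.33 ± 0.07. One dimmer *Masp1* probe was called in the opposite direction for the HFD response in *Pparα*-/- mice (0.37, against -0.29 for the brightest), so the probes of this gene disagree. Over the dimmer probes of all members and the 12 comparisons, dimmer and brightest probe were both called in the same direction in 46 cases. In 43 cases, over 11 genes, only 1 of them was called, and in 114 neither was. *Masp2* was higher in *Pparα*-/- than in *Pparα* hep-/- mice on both diets, by 0.29 ± 0.07 and 0.30 ± 0.07, without overlap on the CTRL diet.

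C3 is cleaved by convertases built from C2 and C4 or from factor B, the products of *C2*, *C4b* and *Cfb*. On the HFD all 4 of these genes were called higher in *Pparα*-/- than in *WT* mice, but under the 75th percentile this call held for *C2* alone. *C2* ran from 14.11 to 15.13 (median 14.38) in *WT* HFD mice, from 14.55 to 15.14 (median 14.75) in *Pparα* hep-/- HFD mice and from 14.58 to 15.40 (median 14.93) in *Pparα*-/- HFD mice. The groups overlapped, and *C2* was higher than in *WT* mice by 0.39 ± 0.10 (adjusted p = 0.0035) and 0.63 ± 0.10 (adjusted p = 2.16e-06) in the 2 mutant lines. The first call was lost in 5 of 19 alternative settings, as was that of *C2* in *Pparα* hep-/- against *WT* CTRL mice (0.34 ± 0.11, adjusted p = 0.0243 in limma). *C3*, at a mean log2 signal between 18.53 and 18.76 in the 6 groups, was higher by 0.27 ± 0.04 in *Pparα*-/- mice, a difference that turned to -0.09 under the 75th percentile and was not called there. *C4b* was higher by 0.38 ± 0.08 and *Cfb* by 0.25 ± 0.07, against 0.11 and 0.069, not called, under the 75th percentile. The *C4b* sequence is nearly that of *C4a*, so that its probes can take up both transcripts.

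*Cfb*, an acute-phase gene, rose on the HFD in *Pparα* hep-/- (0.37 ± 0.07, adjusted p = 9.4e-05) and *Pparα*-/- mice (0.28 ± 0.07, adjusted p = 0.00249), with 8 of 8 mice above the CTRL mean in both. It ran from 15.98 to 16.36 on the CTRL diet and from 16.22 to 16.71 on the HFD in *Pparα* hep-/- mice, and from 16.01 to 16.50 and 16.35 to 16.95 in *Pparα*-/- mice. The diet groups overlapped in both genotypes, and under the 75th percentile the differences were 0.16 and 0.013, not called. *C4b* rose on the HFD in the same 2 genotypes, by 0.21 ± 0.08 and 0.30 ± 0.08. The first call was lost in 11 of 19 alternative settings (0.035 under the 75th percentile, adjusted p = 0.819 in limma), and the second difference turned to -0.12, not called, under the 75th percentile.

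The terminal genes encode C5 (*Hc*) and the parts of the membrane attack complex (*C6*, *C8a*, *C8b*, *C8g*, *C9*). They fell where they changed with the diet. *C8b*, which encodes the beta chain of C8, ran from 13.86 to 15.46 (median 15.04) on the CTRL diet and from 12.94 to 15.51 (median 14.38) on the HFD in *WT* mice. In *Pparα* hep-/- mice it ran from 13.63 to 14.96 (median 14.37) and from 13.08 to 14.25 (median 13.50), and in *Pparα*-/- mice from 14.55 to 15.22 (median 14.95) and from 13.54 to 14.52 (median 13.93). The diet groups of *Pparα*-/- mice did not overlap, while *WT* HFD mice spread over the whole range. The HFD difference was -0.77 ± 0.23 in *WT* (adjusted p = 0.012), -0.92 ± 0.19 in *Pparα* hep-/- (adjusted p = 0.000661) and -1.01 ± 0.20 in *Pparα*-/- mice (adjusted p = 0.00028). *C8b* was also lower in *Pparα* hep-/- than in *WT* mice, at -0.63 ± 0.22 on the CTRL diet and -0.77 ± 0.20 on the HFD. The first of these calls was lost in 6 of 19 alternative settings, with values from -0.93 to -0.29.

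*C6*, which joins the complex after C5, fell on the HFD, with a difference of -1.0 ± 0.22 in *WT* mice (adjusted p = 0.000958) and of -0.83 ± 0.19 in *Pparα*-/- mice (adjusted p = 0.00155), and its difference of -0.23 in *Pparα* hep-/- mice was not called. *WT* HFD mice ran from 9.90 to 12.79 around a median of 11.23, against 11.70 to 12.73 on the CTRL diet. *C6* in *Pparα* hep-/- CTRL mice was lower than in *WT* mice (-0.61 ± 0.21), at 11.14 to 11.89, a call lost in 7 of 19 alternative settings (adjusted p up to 0.17 in limma).

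*C9*, the subunit that polymerises into the pore, ran on the CTRL diet from 15.49 to 16.35 (median 15.88) in *WT*, from 14.74 to 15.59 (median 15.27) in *Pparα* hep-/- and from 15.63 to 16.28 (median 16.03) in *Pparα*-/- mice. *Pparα* hep-/- mice were lowest and did not overlap with *Pparα*-/- mice. The differences were -0.75 ± 0.16 from *WT* mice (adjusted p = 0.000326) and 0.86 ± 0.15 between *Pparα*-/- and *Pparα* hep-/- mice (adjusted p = 9.14e-06). On the HFD the 3 genotypes overlapped, and 0 of the 3 differences in *C9* were called in limma (0 at an unadjusted p of at most 0.05). *C8a* was lower in *Pparα* hep-/- than in *WT* CTRL mice (-0.38 ± 0.14) and higher in *Pparα*-/- than in *Pparα* hep-/- mice on both diets (0.51 ± 0.13 and 0.46 ± 0.12). *Hc* was higher in *Pparα*-/- than in *Pparα* hep-/- mice by 0.57 ± 0.12 and 0.47 ± 0.11, without overlap on the HFD. *C8g* differed by at most 0.28 on the log2 scale in any of these comparisons, and was lower in *Pparα*-/- than in *WT* mice on the HFD (-0.25 ± 0.07, adjusted p = 0.00213).

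**Figure D3:**
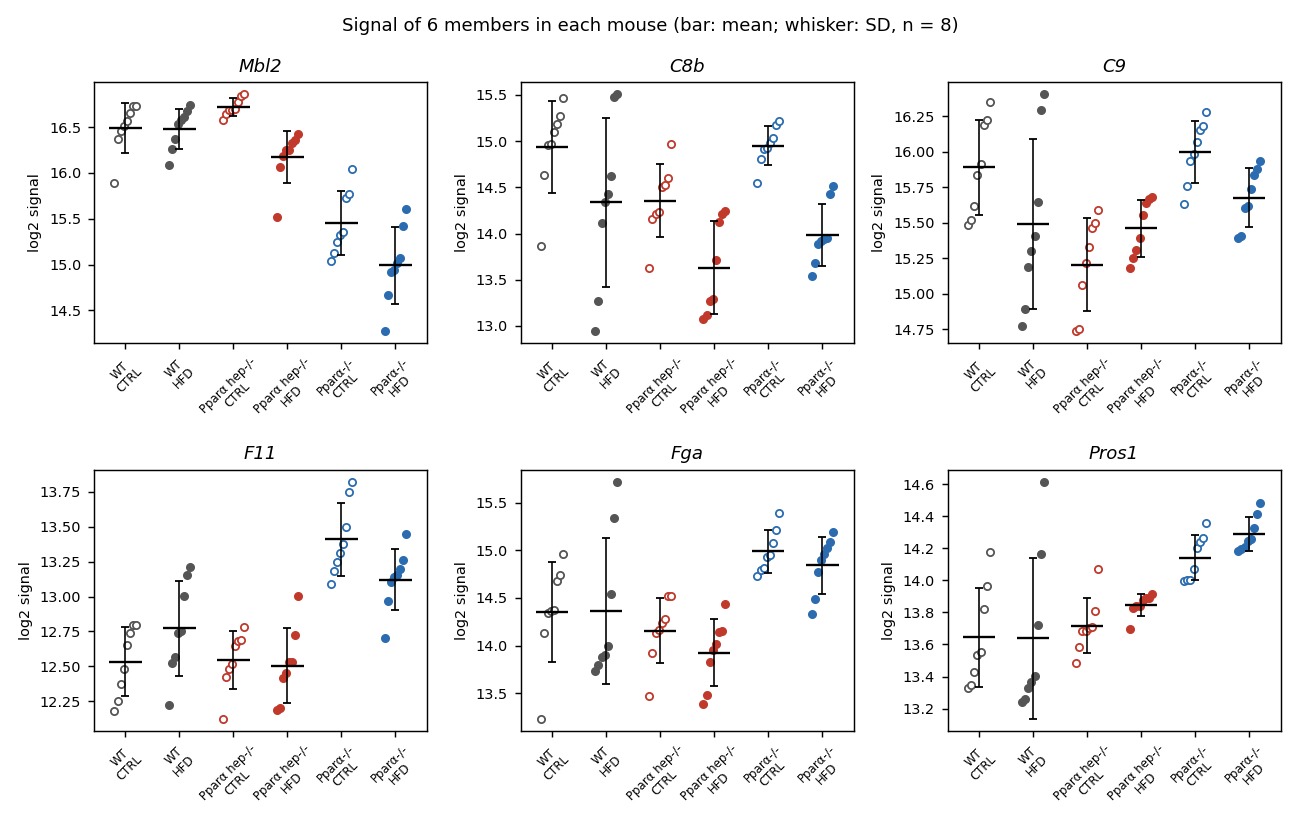
Log2 signal of 6 members in every mouse, by genotype and diet (open, CTRL; filled, HFD), with the mean as a bar and the SD as a whisker (n = 8). *Mbl2* is lowest in *Pparα*-/- mice, *F11*, *Fga* and *Pros1* are highest there on the CTRL diet, and 2 *WT* HFD mice stand above the others for *C8b*, *C9*, *Fga* and *Pros1*.

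On the HFD the 3 regulators were all higher in *Pparα*-/- mice than in either other genotype. *Serping1* encodes the C1 inhibitor, which blocks proteases of both complement and the contact system. It ran from 16.21 to 17.32 (median 16.50) in *WT* HFD mice, from 16.45 to 16.88 (median 16.58) in *Pparα* hep-/- HFD mice and from 16.94 to 17.24 (median 17.07) in *Pparα*-/- HFD mice. The last 2 groups did not overlap. It was higher in *Pparα*-/- mice by 0.57 ± 0.09 (adjusted p = 6.77e-07) against *WT* and 0.50 ± 0.08 (adjusted p = 4.62e-06) against *Pparα* hep-/- mice. Its rise on the HFD in *Pparα*-/- mice (0.25 ± 0.09, adjusted p = 0.0343) turned to -0.11, not called, under the 75th percentile. *Cfi*, the protease that inactivates C3b and C4b, was higher in *Pparα*-/- than in *Pparα* hep-/- mice by 0.29 ± 0.06 on the CTRL diet and 0.27 ± 0.05 on the HFD, without overlap on either. *Vtn* (vitronectin, which binds the terminal complex) was higher by 0.26 ± 0.07 on the HFD; against *WT* mice it was higher by 0.21 ± 0.07, which turned to -0.09, not called, under the 75th percentile.

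Of the contact system, in which factor XII, prekallikrein, kininogen and factor XI activate each other on a surface, *F11* stood out. On the CTRL diet it ran from 12.18 to 12.80 (median 12.57) in *WT* mice, from 12.13 to 12.78 (median 12.58) in *Pparα* hep-/- mice and from 13.09 to 13.82 (median 13.34) in *Pparα*-/- mice. All 8 *Pparα*-/- mice lay above all mice of the other genotypes. The difference was 0.87 ± 0.12 from *WT* mice (1.83 times, adjusted p = 8.38e-08) and 0.86 ± 0.11 from *Pparα* hep-/- mice (adjusted p = 1.23e-08). On the HFD it was 0.41 ± 0.10 and 0.66 ± 0.10, with overlap. *F12* fell slightly with the HFD in every genotype, by 0.16, 0.17 and 0.15 on the log2 scale in *WT*, *Pparα* hep-/- and *Pparα*-/- mice (adjusted p = 0.018, 0.00397 and 0.0104). *Kng1* fell in *Pparα* hep-/- mice without overlap (-0.24 ± 0.04, adjusted p = 3.49e-06) and in *WT* mice (-0.12 ± 0.04). The near-identical *Kng2* may share its probes. *Klkb1* was lower in *Pparα* hep-/- HFD mice than in *Pparα* hep-/- CTRL mice (-0.27 ± 0.08) and *WT* HFD mice (-0.33 ± 0.09), and it was not called in the comparisons of *Pparα*-/- mice.

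Among the genes of thrombin generation, *F2* (prothrombin) was called in 0 of the 12 comparisons in limma (1 at an unadjusted p of at most 0.05) and had a mean log2 signal between 17.81 and 17.87 in the 6 groups. *F5*, the cofactor that speeds prothrombin activation, ran from 14.51 to 14.91 in *WT* HFD mice and from 15.08 to 15.26 in *Pparα*-/- HFD mice, with no overlap and a difference of 0.48 ± 0.06 (adjusted p = 7.15e-09). It was also higher in *Pparα*-/- than in *WT* mice on the CTRL diet (0.33 ± 0.07) and in *Pparα* hep-/- than in *WT* mice on the HFD (0.25 ± 0.06). *F9* was higher in *Pparα*-/- mice in all 4 comparisons with the other genotypes, by 0.20 to 0.28. It rose on the HFD in *Pparα* hep-/- mice (0.18 ± 0.05, adjusted p = 0.0115), a call lost in 7 of 19 alternative settings. *F10* ran from 15.87 to 16.20 in *Pparα* hep-/- HFD mice and from 16.26 to 16.55 in *Pparα*-/- HFD mice, without overlap (0.40 ± 0.06, adjusted p = 2.48e-07). *F7*, the protease that pairs with tissue factor, fell on the HFD in *Pparα* hep-/- (-0.41 ± 0.10) and *Pparα*-/- mice (-0.35 ± 0.10). Its difference of -0.09 ± 0.12 in *WT* mice was not called.

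Fibrinogen is built of equal numbers of its 3 chains, encoded by *Fga*, *Fgb* and *Fgg*. *Fga* ran from 13.23 to 14.96 (median 14.37) in *WT*, from 13.47 to 14.52 (median 14.20) in *Pparα* hep-/- and from 14.73 to 15.39 (median 14.94) in *Pparα*-/- CTRL mice. On the HFD it ran from 13.73 to 15.72 (median 13.95), from 13.38 to 14.44 (median 13.99) and from 14.33 to 15.19 (median 14.93). *Pparα*-/- mice were higher than *Pparα* hep-/- mice by 0.78 ± 0.17 on the CTRL diet, without overlap, and by 0.92 ± 0.15 on the HFD (1.90 times, adjusted p = 2.81e-06). They were higher than *WT* mice by 0.54 ± 0.18 and 0.69 ± 0.16. The first of these calls was lost in 4 of 19 alternative settings, with values from 0.33 to 0.67. The brightest *Fga* probe lies at chr3:82835678-82835737 (mm9, plus strand) and the other at chr3:82837260-82837319. The other probe differed by 0.37 and 0.47 in the same direction between the mutant lines and was not called, so the size of the *Fga* difference depends on the probe. *Fgb* and *Fgg* were called in 0 of 6 comparisons between genotypes in limma, and 0 had an unadjusted p of at most 0.05. *Fgb* fell on the HFD in *WT* (-0.29 ± 0.09) and *Pparα* hep-/- mice (-0.20 ± 0.07). *F13b*, the carrier subunit of the crosslinking factor XIII, ran from 13.60 to 13.85 in *Pparα*-/- HFD mice, above all *WT* HFD mice (13.17 to 13.44) and all *Pparα* hep-/- HFD mice (13.25 to 13.54), with differences of 0.33 ± 0.06 and 0.32 ± 0.06. On the CTRL diet *Pparα* hep-/- mice exceeded *WT* mice by 0.27 ± 0.07 (adjusted p = 0.00206).

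Of the anticoagulants, *Pros1* (protein S, cofactor of activated protein C) was higher in both mutant lines on the HFD. It ran from 13.24 to 14.62 (median 13.39) in *WT*, from 13.70 to 13.91 (median 13.86) in *Pparα* hep-/- and from 14.18 to 14.48 (median 14.25) in *Pparα*-/- HFD mice. The mutant groups did not overlap, and *WT* mice 1 and 2, at 14.17 and 14.62, lay above every *Pparα* hep-/- mouse. The difference from *WT* mice was 0.41 ± 0.10 (adjusted p = 0.00116) in *Pparα* hep-/- mice and 0.84 ± 0.09 (1.79 times, adjusted p = 6.2e-10) in *Pparα*-/- mice, and 0.43 ± 0.09 between the mutant lines. On the CTRL diet *Pparα*-/- mice were higher than *WT* mice by 0.56 ± 0.11. *Serpinc1*, which encodes antithrombin, went the other way on the CTRL diet, at -0.13 ± 0.04 against *WT* and -0.19 ± 0.04 against *Pparα* hep-/- mice. The first call was lost in 6 of 19 alternative settings, with the difference as small as -0.039 for the mean of its probes (adjusted p = 0.658 in limma). *Serpind1* (heparin cofactor II) and *Proc* (protein C) were higher in *Pparα*-/- than in *Pparα* hep-/- HFD mice by 0.27 ± 0.05 and 0.21 ± 0.06.

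Of the fibrinolysis genes, *Plg*, which encodes plasminogen, was higher in *Pparα*-/- mice by 0.46 ± 0.10 against *WT* CTRL mice (adjusted p = 0.000462) and by 0.39 ± 0.09 and 0.28 ± 0.08 against *Pparα* hep-/- mice on the CTRL diet and the HFD. *Serpinf2*, the plasmin inhibitor, ran from 16.07 to 16.50 in *Pparα* hep-/- HFD mice and from 16.56 to 16.85 in *Pparα*-/- HFD mice, without overlap (0.44 ± 0.07, adjusted p = 9.86e-07). *Cpb2*, which encodes a carboxypeptidase that slows fibrinolysis, was called in 0 of the 12 comparisons in limma, and 0 had an unadjusted p of at most 0.05.

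Whether the diet acted differently by genotype was tested directly as a difference of HFD responses. Of the 37 members, 4 differed between *Pparα* hep-/- and *WT* mice, 4 between *Pparα*-/- and *WT* mice and 3 between the mutant lines, against 10.4%, 14.3% and 3.42% of all probes. The share of members was near or below that of all probes except between the mutant lines. The splits were 2 higher and 2 lower, 2 and 2, and 3 and 0. Under the 75th percentile they were 0 and 5, 0 and 6, and 0 and 0, beside 4440, 5295 and 950 of 33323 probes called. The *Cfb* response exceeded that of *WT* mice by 0.41 ± 0.10 (adjusted p = 0.00882) in *Pparα* hep-/- and by 0.32 ± 0.10 (adjusted p = 0.0333) in *Pparα*-/- mice. The *Mbl2* response was lower than in *WT* mice, with differences of -0.64 ± 0.20 and -0.59 ± 0.21 (adjusted p = 0.0346 and 0.0451). *C9* differed by 0.81 ± 0.21 between *Pparα* hep-/- and *WT* mice (adjusted p = 0.0104), with a HFD response of -0.52 ± 0.16 in *WT* mice and 0.30 ± 0.14, not called, in *Pparα* hep-/- mice. The call of *C9* in *WT* mice was lost in 6 of 19 alternative settings, with values from -0.75 to -0.37. The calls of the responses that differed held in 4 to 13 of 19 alternative settings. Without array weights 0 of the 37 members were called in any of the 3 tests of responses in limma (6, 5 and 5 at an unadjusted p of at most 0.05), beside 0.894%, 5.22% and 0.33% of all probes. Without *WT* HFD mice 1 and 2 the counts were 6, 7 and 3, beside 4205, 5391 and 1181 of 33323 probes. *F11* and *Serpinf2* were then no longer called against *WT* mice, nor *Serpinc1* between the mutant lines.

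**Figure D4:**
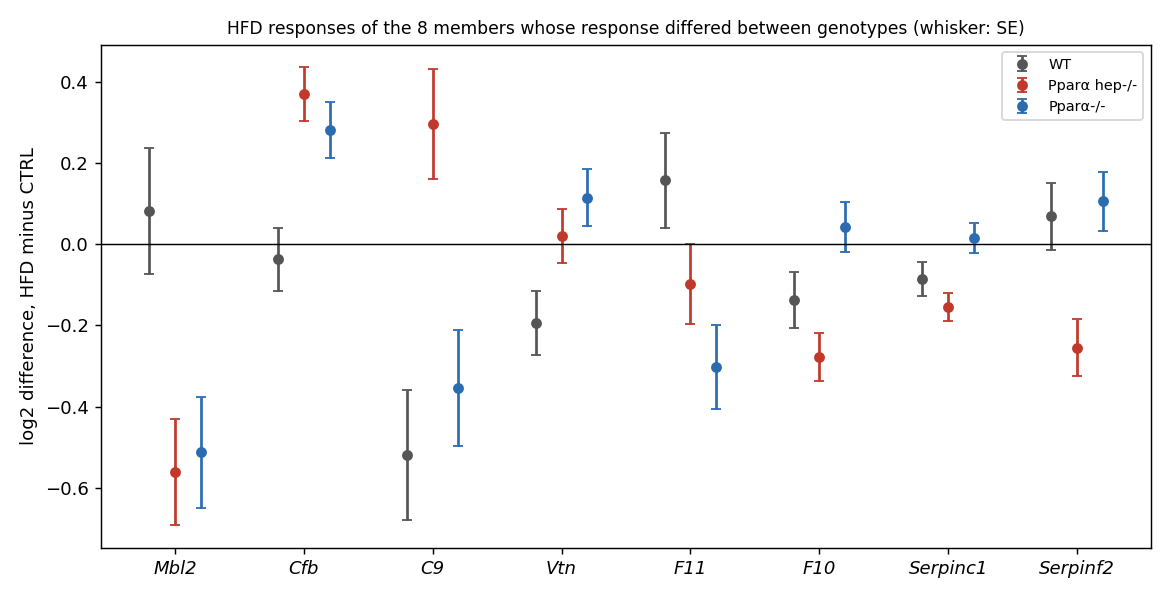
HFD response (log2 difference, HFD minus CTRL, with SE) in each genotype for the 8 members whose response differed between at least 2 genotypes. *Cfb* rose and *Mbl2* fell in both mutant lines and not in *WT* mice, whereas the *C9* response was negative in *WT* mice; under the 75th percentile the *Vtn* difference between *Pparα*-/- and *WT* mice turned to -0.12 and the *Serpinc1* difference between the mutant lines to -0.052.

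Some members are neighbours on a chromosome. By RefSeq start sites *Fgg*, *Fga* and *Fgb* lie in 1 cluster on chromosome 3, with 18.4 and 23.7 kb between successive starts, *F7* and *F10* lie 11.3 kb apart and *F11* and *Klkb1* 32.8 kb apart on chromosome 8, and *C8b* and *C8a* 110.1 kb apart on chromosome 4. Between *Pparα*-/- and *Pparα* hep-/- CTRL mice *F11* differed by 0.86 ± 0.11 and *Klkb1* by 0.06 ± 0.09, and *Fga* by 0.78 ± 0.17 while *Fgg* gave 0.02 ± 0.07 and *Fgb* -0.08 ± 0.08. *C8a* and *C8b* gave like values, 0.51 ± 0.13 and 0.53 ± 0.21, of which the first was called. Differences between neighbours were not tested, and the *Fga* value rests on the brighter of its probes.

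**Figure D5:**
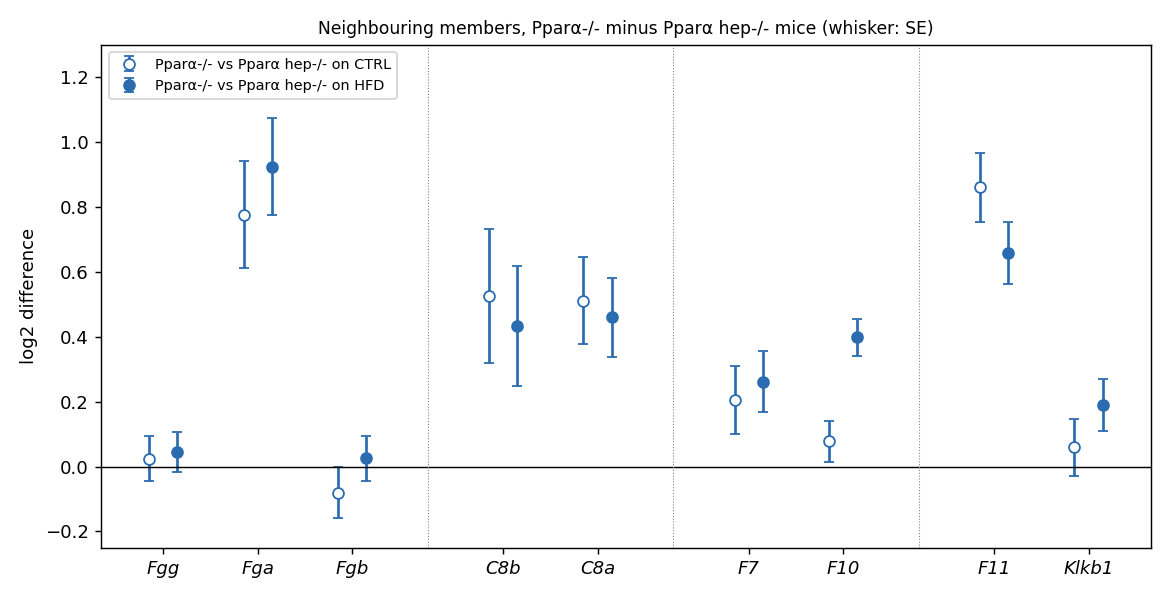
Log2 difference between *Pparα*-/- and *Pparα* hep-/- mice (with SE) for members that adjoin on a chromosome, on the CTRL diet (open) and the HFD (filled); dotted lines part the clusters. *Fga* and *F11* stand at 0.66 to 0.92 while their neighbours *Fgg*, *Fgb* and *Klkb1* stand at -0.08 to 0.19. The *Fga* values are those of its brighter probe, and its other probe gave smaller differences that were not called.

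Of 34 other complement genes tested, 11 rose and 2 fell on the HFD in *Pparα* hep-/- mice (all probes 9.46% and 10.8%). In *Pparα*-/- mice 18 rose and 1 fell (12.2% and 12.6%), and in *WT* mice 3 rose and 1 fell (8.60% and 10.1%). *C1qa*, *C1qb*, *C1qc*, *Vsig4* and *Itgax* are in this list and are counted again below among the macrophage markers. In the mutant lines, *Pparα* hep-/- given first, the integrin *Itgax* rose by 1.5 and 1.12, and *C1qa*, a macrophage product, by 0.57 and 0.99. The complement regulator *Susd4* was called lower, at -1.24 and -0.97, but without array weights neither was called (-0.38 and -0.93). In *Pparα* hep-/- mice it ran from 7.08 to 12.72 (median 12.47) on the CTRL diet and from 10.17 to 12.39 (median 11.17) on the HFD, and without array weights and the 2 arrays of lowest weight the difference was -1.21. Under the 75th percentile 9 of the 34 rose and 3 fell in *Pparα* hep-/- mice (8227 of 33323 probes called). In *Pparα*-/- mice 15 rose and 5 fell (9349 probes called). *Cfd*, which encodes factor D and is known mainly as a product of fat cells, rose by 5.79 on the HFD in *WT* mice. Its signal there ran from 5.74 to 15.51 (median 14.18), against 5.70 to 9.92 in *WT* CTRL mice, 5.62 to 8.74 in *Pparα* hep-/- HFD mice and 5.29 to 7.46 in *Pparα*-/- HFD mice.

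Of 30 other coagulation and fibrinolysis genes tested, 16 were higher and 3 lower in *Pparα*-/- than in *WT* mice on the HFD, and 13 higher and 2 lower than in *Pparα* hep-/- mice, beside 21.8% and 24.0%, and 15.2% and 15.4%, of all probes. Under the 75th percentile the counts were 13 and 4, and 9 and 2. *Adamts13*, the protease that cuts von Willebrand factor, was lower in *Pparα*-/- mice on both diets. It ran from 7.42 to 7.92 in *WT*, from 7.47 to 8.21 in *Pparα* hep-/- and from 5.67 to 6.26 in *Pparα*-/- CTRL mice, and from 6.93 to 8.53, 7.83 to 8.24 and 6.15 to 6.44 on the HFD. *Pparα*-/- mice lay below all others, with differences of -1.74 and -1.47 from *WT* mice. *Vwf* itself, an endothelial product, was higher by 0.96 and 1.19. Of 6 vitamin K cycle genes tested, the carboxylase *Ggcx*, which acts on factors II, VII, IX and X and proteins C and S, was higher in *Pparα*-/- CTRL mice, by 0.54 against *WT* and 0.41 against *Pparα* hep-/- mice, without overlap.

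Of 23 acute-phase proteins, 13 rose and 1 fell on the HFD in *Pparα* hep-/- mice (all probes 9.46% and 10.8%). In *Pparα*-/- mice 4 rose and 2 fell (all probes 12.2% and 12.6%), or 3 and 4 under the 75th percentile. In *WT* mice 1 rose and 0 fell (all probes 8.60% and 10.1%). *Lcn2* rose by 3.19 in *Pparα* hep-/- mice, and *Saa1* and *Saa2*, which are nearly the same in sequence and may share probes, by 1.97 each without overlap. In *Pparα*-/- mice 11 were higher and 0 lower than in *Pparα* hep-/- mice on the CTRL diet, among them *Lcn2* (2.93) and *Orm3* (1.77). Of 13 liver transcription factors tested, the deleted *Ppara* left out, 3 were higher and 5 lower in *Pparα* hep-/- than in *WT* CTRL mice, with *Foxa1* at -1.10, and 2 higher and 0 lower in *Pparα*-/- than in *Pparα* hep-/- CTRL mice. Of 14 apolipoproteins, 7 were higher and 2 lower in *Pparα*-/- than in *WT* mice on the HFD (all probes 21.8% and 24.0%), with *Apoa4* at 2.42. Under the 75th percentile 2 were higher and 7 lower (16432 of 33323 probes called).

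Of 14 Kupffer cell and macrophage markers, 12 were higher and 1 lower in *Pparα*-/- than in *WT* mice on the HFD (all probes 21.8% and 24.0%), with a summed linear signal of 73550 to 145300 against 23100 to 121900, and all 14 were well above background in each group. The 10 stellate cell and fibroblast markers were all higher in this comparison (48500 to 83050 against 17830 to 114600), as were 7 of 10 endothelial markers, with 1 lower (20450 to 26560 against 14500 to 20270). Under the 75th percentile the counts of these 3 lists were the same. Of the 11 hepatocyte markers 1 was higher and 1 lower, and 0 were higher and 8 lower under the 75th percentile. Between *Pparα*-/- and *Pparα* hep-/- CTRL mice, where 15 members were higher, 0 of the 14 macrophage markers were called in limma (3 at an unadjusted p of at most 0.05), 0 of the 10 stellate markers were higher and 1 was lower, and 2 of 10 endothelial markers were higher and 1 lower. Of the smaller lists, 1 of 8 neutrophil and 2 of 7 red blood cell markers were higher and 1 of 8 lipid-associated macrophage markers was lower. On the HFD, where 23 members were higher, 3 of the 14 macrophage markers were higher in *Pparα*-/- than in *Pparα* hep-/- mice and 1 was lower (all probes 15.2% and 15.4%). *Timd4*, a receptor of resident Kupffer cells, was higher by 1.47 without overlap, *Adgre1* by 0.76 and *Csf1r* by 0.49. *Cd163* and *Marco* went the other way, with mean log2 signals of 7.67 against 8.57 and 11.48 against 12.16. The summed signal of the macrophage markers ran from 73550 to 145300 (median 117500) against 62540 to 124100 (median 85760). Of the endothelial markers 3 were higher and 1 lower, with the scavenger receptor *Stab2* higher by 0.75 without overlap (20450 to 26560 against 17320 to 24250 for the list). *Clec4g* went the other way, with a mean log2 signal of 12.27 against 12.78. Of the neutrophil markers 3 were higher and 0 lower, and of the stellate markers 1 and 0. Of 5 bile duct markers 0 were higher and 2 lower, of 5 platelet markers 0 and 1, of 7 red blood cell markers 1 and 0 and of 8 lipid-associated macrophage markers 0 and 0 (1 at an unadjusted p of at most 0.05 in limma). The part of the marker genes in the differences of the members was not tested in any comparison. Of the 11 hepatocyte markers 1 was higher and 1 lower between the mutant lines on the CTRL diet, and 0 higher and 1 lower on the HFD. The summed signal of the hepatocyte markers ran from 2693000 to 2801000 in *Pparα*-/- and from 2743000 to 2864000 in *Pparα* hep-/- CTRL mice, and that of the 37 members from 3214000 to 3663000 and from 3110000 to 3388000.

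Of 8 neutrophil markers 5 were higher and 0 lower in *Pparα*-/- than in *WT* mice on the HFD. The probe of *Csf3r* gave 33890 to 42900 against 33030 to 38090 and was not called, and the other 7 summed to 2410 to 6991 (median 3729) against 651.5 to 34830 (median 1059). Of 8 lipid-associated macrophage markers 7 were higher and 0 lower (8503 to 18570 against 5072 to 49820). Of 5 bile duct markers tested 1 was higher and 0 lower, of 5 platelet markers 2 and 2, and of 7 red blood cell markers 1 and 0.

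With the HFD, 6 of the 14 macrophage, 5 of the 8 lipid-associated macrophage and 7 of the 10 stellate markers rose in *Pparα* hep-/- mice, and 11, 5 and 8 in *Pparα*-/- mice, where 1 macrophage marker fell. In both lines 1 lipid-associated macrophage marker fell. Of all probes 9.46% rose and 10.8% fell in *Pparα* hep-/- mice, and 12.2% and 12.6% in *Pparα*-/- mice. The macrophage sum ran from 56490 to 161200 (median 64750) on the CTRL diet in *Pparα* hep-/- mice and from 62540 to 124100 (median 85760) on the HFD, and from 44310 to 130900 (median 64530) and 73550 to 145300 (median 117500) in *Pparα*-/- mice. In *WT* mice 0 macrophage and 0 stellate markers were called in limma (0 of either at an unadjusted p of at most 0.05), and 3 lipid-associated macrophage markers fell. Of the 11 hepatocyte markers 0 rose in any genotype, and 2, 1 and 3 fell in *WT*, *Pparα* hep-/- and *Pparα*-/- mice, or 1, 3 and 10 under the 75th percentile.

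Between *Pparα* hep-/- and *WT* mice, 5 of the 14 macrophage, 4 of the 10 endothelial and 1 of the 10 stellate markers were higher on the CTRL diet. On the HFD 10 macrophage, 6 lipid-associated macrophage, 9 stellate and 4 endothelial markers were higher, and 0 of these were lower on either diet. Of all probes 11.3% were higher and 13.4% lower on the CTRL diet, and 13.3% and 13.4% on the HFD. Of the hepatocyte markers 1 was lower on the CTRL diet and 1 higher on the HFD, and under the 75th percentile 5 were lower on the HFD.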

How the data were processed

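Total liver RNA was measured on one-colour Agilent 8x60K mouse arrays. The authors deposited a scanner file for each array, with spot intensity values not yet normalized (Agilent Feature Extraction 10.10.1.1 per the submitters' processing notes), and a table of log2 values of 32816 probes that the authors had normalized. The latter was used as an alternative only (r of 0.99939 to 0.99953 with the values used here, column median 7.9115). Its scale is log2, and it has 1 median for all arrays.

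Groups were taken from the labels. From the scanner files, log2 of the median spot intensity was taken, spots flagged as outliers and control spots were left out, spots of a probe were averaged, a probe was kept (33323 of 56605) where some group had it well above background on 4 or more of its 8 arrays, and arrays were quantile normalized. A linear model of the 6 group means with the wash batch (2 batches, as named in the labels) and array weights was fitted across all probes with limma 3.58.1 in R 4.3.3 (the data.table package, version 1.17.8), with empirical Bayes moderation. P-values were two-sided and adjusted by Benjamini-Hochberg within each of 12 contrasts over all probes, with 0.05 as the highest adjusted p for a call. The code was tested on simulated data.

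The members, the other gene lists and the markers were chosen with earlier results of these data known. A gene is represented by its brightest tested probe. All members may be named, and differences were given for the called members with the largest change, up to 3 in each direction of a contrast, and for members whose groups did not overlap. Of other lists, the called genes with the largest change were named, up to 3 in each direction. Alternatives were no array weights, processed signals scaled to the 75th percentile, normexp background correction, the authors' table, no filter and a stricter filter. Others were no wash batch term, slide as a block and replicate number as a block. The mean of all probes of a gene and a fit without the array of lowest weight were further, separate alternatives. For named members there were also separate fits within either wash batch (fewer mice each, and 73 of the 227 calls lost). Chosen after seeing the data were 4 settings without the arrays that stood apart, the 75th percentile of the median signal and quantile normalization of the processed signal. Probe coordinates are those of the scanner files (mm9), and promoters and start sites are from RefSeq on GRCm38.p6. The labels treat the mice as separate animals.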

Additional observations from a re-analysis of the deposited data

Results flagged for a closer look

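In 156 groups of 8 mice examined (26 members with full statistics), 15 had 1 mouse whose gap to its nearest neighbour was over Dixon's critical share of the range of the group, and chance alone flags about 5% of groups. *WT* CTRL mouse 6 was lowest in this way for *F7* (11.28), *F13b* (12.68), *Masp1* (12.55), *Masp2* (13.28) and *C8g* (16.21), and *Pparα* hep-/- CTRL mouse 1 for *F9* (12.83), *Masp1* (12.45), *Masp2* (13.26) and *C8g* (16.21). These 9 of the 15 fall on the mice with the lowest array weights. The remaining mice that stood apart were *WT* CTRL mouse 1 and *Pparα* hep-/- HFD mouse 5 for *Mbl2* (15.89 and 15.52, lowest), *Pparα* hep-/- CTRL mouse 4 for *C4b* (16.9, lowest), *Pparα* hep-/- HFD mouse 7 for *Pros1* (13.7, lowest), *Pparα*-/- HFD mouse 8 for *Cfb* (16.95, highest) and *Pparα*-/- HFD mouse 1 for *F13b* (13.85, highest).

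The HFD response differed between genotypes, by the test of that difference in limma, in 11 cases. Between *Pparα* hep-/- and *WT* mice the log2 responses differed for *Mbl2* (-0.64), *Cfb* (0.41), *C9* (0.81) and *Serpinf2* (-0.32). Between *Pparα*-/- and *WT* mice they differed for *Mbl2* (-0.59), *Cfb* (0.32), *Vtn* (0.31) and *F11* (-0.46), and between *Pparα*-/- and *Pparα* hep-/- mice for *F10* (0.32), *Serpinc1* (0.17) and *Serpinf2* (0.36).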

How the results depend on the processing

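Counts of called members stayed within 1.5 times the reported count in 163 recomputations and moved further in 41, and named differences kept their side of the threshold in 1133, lost it in 227 and turned in sign in 8. Without array weights the counts were 2, 5 and 6 for the HFD in *WT*, *Pparα* hep-/- and *Pparα*-/- mice, 3 and 3 for *Pparα* hep-/- against *WT* mice on the CTRL diet and the HFD, 15 for *Pparα*-/- against *WT* mice on the HFD, and 0 in each test of responses. Without weights and without the 2 arrays of lowest weight they were 3, 8 and 7, then 5 and 5, and 0 in each test of responses. Of all 33323 probes, 5119, 2759 and 5703, then 6691 and 4840, and 972, 1993 and 140 were called there. Processed signals scaled to the 75th percentile, which change signal and scaling together, gave 21 for the HFD in *Pparα*-/- mice, 5 and 17 for *Pparα* hep-/- against *WT* mice and 0 for the response between the mutant lines. It turned *C4b* (-0.12) and *Serping1* (-0.11) on the HFD in *Pparα*-/- mice, and the differences of response of *Vtn* (-0.12, *Pparα*-/- against *WT*) and *Serpinc1* (-0.052, between the mutant lines). The scaling alone, with the median signal, gave 5 for the HFD in *WT* and 21 in *Pparα*-/- mice, 19 for *Pparα* hep-/- against *WT* mice on the HFD and 0 for the response between the mutant lines. Of all 33323 probes, 5579, 12608, 11600 and 1705 were called in these comparisons. The scaling alone also turned the same differences (-0.079, -0.085, -0.066 and -0.058). The processed signal alone, with quantile normalization, gave 1 for the response of *Pparα*-/- against *WT* mice. Without the filter on dim probes, the HFD in *WT* mice gave 1, *Pparα* hep-/- against *WT* CTRL mice 4 and the responses 1, 0 and 0; without the wash batch term the responses gave 2, 0 and 0. With slide as a block they gave 2, 2 and 1. Without *WT* HFD mice 1 and 2 the HFD in *WT* mice gave 14 and the response of *Pparα*-/- against *WT* mice 7. With the authors' table that response gave 2 higher and 1 lower. For the settings without weights, with other scaling, filters or terms, the cause was not tested. Where tests of responses gave 0, 2 to 9 members had an unadjusted p of at most 0.05 in limma, or 10 with the replicate block.

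Same-numbered mice of different groups did not deviate together (median r of 0.0223 over 120 pairs, from -0.449 to 0.694, against -0.0023 for other pairs, and 11 of 48 arrays correlated best with their own number). With the replicate block the responses gave 2, 0 and 2 calls, and the 9 comparisons of 2 groups 6, 15, 11, 6, 15, 14, 9, 23 and 24, in the order HFD effects in *WT*, *Pparα* hep-/- and *Pparα*-/- mice, then *Pparα* hep-/- against *WT*, *Pparα*-/- against *WT* and *Pparα*-/- against *Pparα* hep-/- mice on the CTRL diet and again on the HFD. *Serpinc1* was no longer called between the mutant lines' responses without *WT* CTRL mouse 6, *Pparα* hep-/- CTRL mouse 1 or *WT* HFD mice 1 and 2 (adjusted p = 0.0512, 0.0506 and 0.055 in limma), nor *Mbl1* on the HFD in *WT* mice without mice 1 and 2 of that group (adjusted p = 0.0859).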
